A study of Mus musculus with 5 samples.

Results

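The opposite-strand RNAs are transcripts whose gene name ends in os, or in os and a digit, after the name of the gene on the other DNA strand. They were collected by name from a table of 23997 genes measured by RNA-seq in the E16 mouse cortex. By letters alone 149 names fitted. Of these, 20 belong to genes such as Fos or Nos1 that merely end so, and 9 are protein-coding genes that carry an opposite-strand name. The remaining 120 are the noncoding RNAs described here. The family was chosen by its name, but after Kank4os and Smc2os had been seen among the genes with the largest differences between the genotypes in these same libraries. All values of the family in that contrast are therefore a description, and no p is given for a member.

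RNA came from whole cortices of C57BL/6 embryos at E16. The 3 control libraries (MG15, MG16 and MG17) are Uhrf1 +/- and the 2 cKO libraries (MG18 and MG19) are Uhrf1 -/-, and per the study both groups carry Emx1-driven Cre, which deletes floxed Uhrf1 in the dorsal telencephalon. Cells outside this lineage, such as interneurons from the ventral telencephalon, therefore kept Uhrf1 in the cKO. Uhrf1 recruits the maintenance methyltransferase to newly replicated DNA, and cells that divide without it lose DNA methylation.

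An opposite-strand RNA can start close to the promoter of its partner and run away from it, can lie inside an intron, or can cross exons of the partner in the antisense direction. Some such RNAs act on the chromatin or transcription of the neighbouring gene, some are by-products of a promoter that fires in both directions, and for most no function is known. In the developing forebrain, Dlx6os1 (also called Evf2) is known for its action on the Dlx5 and Dlx6 homeobox genes of interneuron precursors.

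The annotation (GENCODE vM21, GRCm38) placed 117 of the 120 members. Exons of 64 shared bases with exons of the partner gene, here called the namesake, 31 overlapped the namesake without shared exon bases, as in an intron, 17 started head to head beside it (divergent), and 5 lay tail to tail beside it (convergent). In 15 of the 17 divergent pairs the annotated starts were within 1000 bases of each other, with a median distance of 166 bases. Members were found on 20 chromosomes. The starts of 3 members on which the comparison turns are shown in their sequence context, because they cover the largest rise and 2 RNAs listed at 0 in both cKO libraries. Each run is from RefSeq (GRCm38.p6) and holds 250 bases before and 50 after the annotated start, 5′ to 3′ on the strand of the RNA, with each CG, the dinucleotide that carries DNA methylation, in capitals.
Kank4os, chr4:98793518-98793817, plus strand: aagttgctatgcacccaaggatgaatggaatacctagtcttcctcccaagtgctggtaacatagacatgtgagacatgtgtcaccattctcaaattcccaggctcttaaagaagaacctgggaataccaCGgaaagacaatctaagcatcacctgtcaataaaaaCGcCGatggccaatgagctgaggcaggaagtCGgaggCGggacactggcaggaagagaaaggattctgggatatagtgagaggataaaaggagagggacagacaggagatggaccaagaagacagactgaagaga
Smc2os, chr4:52438915-52439214, minus strand: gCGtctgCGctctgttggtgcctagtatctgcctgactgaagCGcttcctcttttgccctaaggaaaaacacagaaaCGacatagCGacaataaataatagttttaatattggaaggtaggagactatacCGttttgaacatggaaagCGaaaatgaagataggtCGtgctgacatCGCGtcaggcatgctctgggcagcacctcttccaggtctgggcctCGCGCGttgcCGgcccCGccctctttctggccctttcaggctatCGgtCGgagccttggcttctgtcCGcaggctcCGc
Abhd11os, chr5:135013108-135013407, minus strand: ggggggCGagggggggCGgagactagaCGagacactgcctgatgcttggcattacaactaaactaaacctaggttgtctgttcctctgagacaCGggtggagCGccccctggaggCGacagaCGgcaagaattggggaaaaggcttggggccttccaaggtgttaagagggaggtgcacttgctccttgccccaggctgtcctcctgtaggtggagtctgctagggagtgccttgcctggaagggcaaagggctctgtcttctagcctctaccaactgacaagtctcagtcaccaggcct

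These windows differed in their content of CG. The Kank4os window held 5 CG, more than 38.3% of the first listed promoters of 27025 genes, and the Abhd11os window held 7. The Smc2os window held 19. Of all 27025 windows 94.2% held at least 1 CG and 43.9% held 10 or more, with a median of 7. For the 94 members with a RefSeq window the median was 8 and 43.6% held 10 or more. The members with a mean of at least 0.1 FPKM (a fragment count divided by transcript length and library size) had CG-rich starts more often, with 10 or more CG in 24 of 31 windows, against 17 of 63 among the members under that level. The namesakes, with a median of 19 CG, resembled the former. The windows of the other changed members held 33 (Lhx1os) and 30 (Med9os) CG, and the 2 windows listed for Hk1os held 21 and 4. A count of letters is not a measure of methylation, which these libraries did not record.

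The libraries differed in depth, estimated only roughly from the steps between low values at 41000000, 15000000 and 9900000 fragments for the controls and 8000000 and 9500000 for the cKO. Small RNA names, left out of the fit, held 64.6% to 87.4% of all FPKM among controls against 39.2% and 56.0% among cKO libraries. Uhrf1 read 7.24, 13.2 and 13.0 FPKM for the controls against 2.75 and 2.61 for the cKO (log2 fold change -1.97, adjusted p = 0.00775, limma over 14702 genes). All 8 markers of the dorsal cortex were present, and their summed level was 1047 to 1311 FPKM in the controls against 863 and 924 in the cKO. Of the 5 markers of meninges and choroid plexus, at 2.38 to 2.91 FPKM in sum in the controls against 8.85 and 5.09 in the cKO, 4 were tested, 2 passed the thresholds upwards and 1 downwards. Dcn was at 6.90 FPKM in MG18 but 0.997 in MG19, against 0.906 to 1.66 in the controls. Col1a1 was at 3.19 FPKM in MG19 but 0.663 in MG18, against 0.203 to 0.816. Lum, at 1.28 and 0.509 FPKM, was above its controls (0.290 to 0.418) in both cKO libraries.

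Most members were low or not seen. In the controls 37 of 120 reached a mean of 0.1 FPKM and 18, or 15%, reached 1 FPKM. Among the other 1695 long noncoding RNAs of the table this share was 18.2%, and among all genes other than small RNAs it was 52.4%. In all 5 libraries 52 members were listed at 0, which in such a table can also be a failed estimate. Another 29 were above 0 in some library but under the filter, with 0.296 FPKM as their highest value. Of these, 16 were above 0 in controls only, 3 in the cKO only and 10 in both groups. The groups differ in the number of libraries and in depth, and the part of these in this split was not tested. The namesakes were far better covered, and 75 of 117 reached 1 FPKM in the controls.

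Members were also read beside highly expressed namesakes. Where exons of the 2 genes share bases and the namesake stood at 50 FPKM or more in the controls, there were 5 members, of which Uchl1os and Atcayos were singled out after their values were seen. Uchl1 codes for a ubiquitin hydrolase of neurons and stood at 298.5 to 460.5 FPKM in the 5 libraries. Uchl1os, which shares 295 exon bases with it, was at 0.0468, 0 and 0.109 FPKM in the controls and was listed at 0 in both cKO libraries. Atcayos shares 432 exon bases with Atcay, at 55.4 to 71.3 FPKM, and was listed at 0 in every library. The other 3 had values in every library, with Rab10os at 2.71 to 3.50 FPKM, Sp3os at 2.70 to 4.12 and Zeb2os at 5.55 to 7.78. The highest level relative to the namesake in these 5 pairs was 6.14%, for Zeb2os. The library kit keeps the strand, but the strand setting of the counting is not stated in the sources used here. Values of members that share exon bases with any gene on the other strand therefore remain less certain than those of the others. There are 70 of these, the 64 that share exon bases with the namesake and also Dlx6os1 among them.

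**Figure D1:**
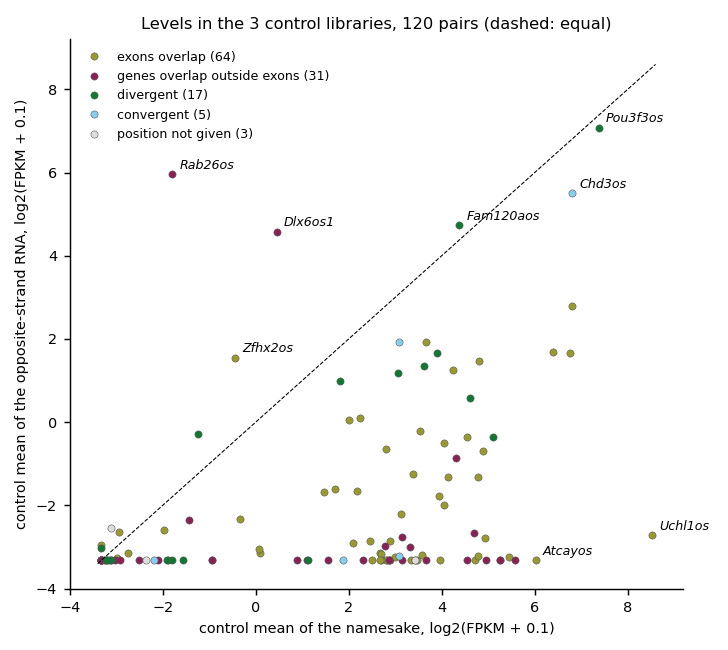
Mean level of each of the 120 opposite-strand RNAs in the 3 control libraries (vertical axis, log2(FPKM + 0.1)) against that of its namesake (horizontal axis, same scale), coloured by their arrangement, with the dashed line at equal levels. Most points lie far below the line, and Rab26os, Dlx6os1, Zfhx2os and Fam120aos are the high members above it.

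The most abundant members were Pou3f3os, Rab26os, Chd3os, Fam120aos and Dlx6os1. Pou3f3os (Pantr1 in RefSeq) starts 926 bases from Pou3f3, which codes for a POU transcription factor of upper-layer neurons. It was at 119.5, 101.6 and 184.2 FPKM in the controls against at 100 and 100.5 in the cKO, where both values lay just under the lowest control (log2 fold change -0.38, SE 0.24). Pou3f3 itself was at 151.6 to 195.7 FPKM in the controls against 195.2 and 199.7 in the cKO. Chd3os was at 49.8, 38.1 and 47.9 FPKM against 50.1 and 41.4, with overlapping groups. RefSeq lists it as noncoding (Rnf227), whereas GENCODE lists it as protein-coding. Fam120aos was at 22.9, 22.4 and 33.9 FPKM against 27.4 and 23.1, near the level of its divergent partner Fam120a (18.6 to 24.5 over the 5 libraries).

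In 9 pairs the member had the higher control mean, and in 2 of these the namesake reached 1 FPKM, namely Fam120aos and Dlx6os1. Rab26os, a transcript of 477 bases that overlaps the small GTPase gene Rab26 without shared exon bases, was the most lopsided. Rab26os was at 57.7, 32.7 and 95.4 FPKM in the controls against 47.3 and 48.0 in the cKO, with the cKO inside the range of the controls. Rab26 was at 0.230, 0.0464 and 0.290 FPKM in the controls against 0.612 and 0.431 in the cKO, so that its groups do not overlap (log2 fold change 1.21, SE 0.52, adjusted p = 0.418, limma). Zfhx2os, which crosses the zinc finger homeobox gene Zfhx2 over 3255 exon bases, was at 1.86 to 3.80 FPKM in the controls against 2.60 and 3.11 in the cKO, above Zfhx2 in each library (0.367 to 0.936).

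The question put to the libraries was which genes change in the cortex that lacks Uhrf1. Kank4os was higher in the cKO, Smc2os, Lhx1os, Abhd11os, Hk1os and Med9os were lower, and none of their 6 namesakes was past the thresholds. The thresholds were an unadjusted p under 0.05 and over 2-fold in limma on log2(FPKM + 0.1), and 39 members with a mean of at least 0.1 FPKM were tested. Of all 14702 genes tested 2.88% were past them upwards and 1.16% downwards. At an adjusted p under 0.05 the counts were 1 member higher and 3 lower, beside 1.10% and 0.163% of all genes. Because the contrast helped to choose the family, nothing is read from these shares. Of the 39, 3 passed the filter although their control mean was under 0.1 FPKM and 6 although their cKO mean was, so these had to differ. Kank4os is among the former, and Smc2os, Lhx1os, Abhd11os and Hk1os are among the latter. Every log2 fold change given here is the cKO minus the control mean of log2(FPKM + 0.1), so that changes of weakly expressed genes come out too small.

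**Figure D2:**
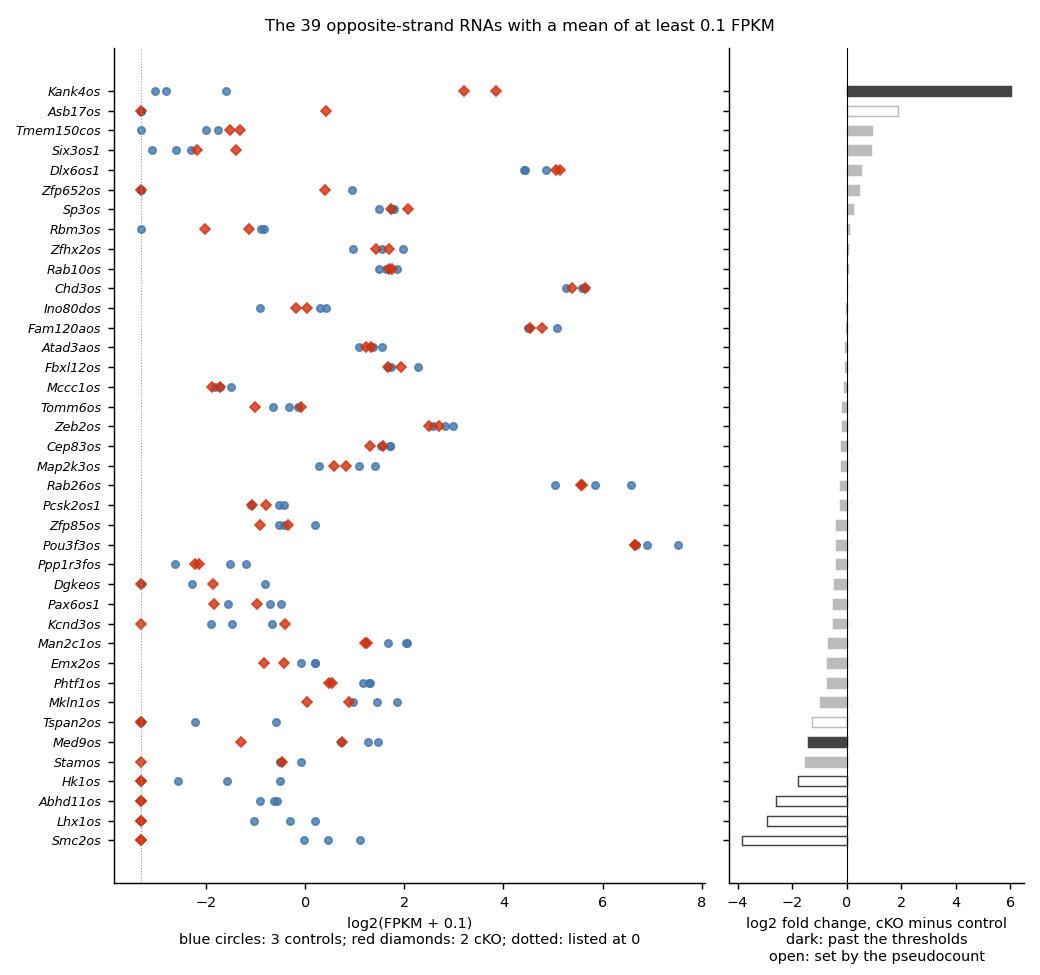
Level of each of the 39 members in every library (left, log2(FPKM + 0.1), controls as blue circles and cKO as red diamonds, with the dotted line at a value of 0) and its log2 fold change (right, dark where past the thresholds, open where 1 group is at 0 throughout and the length is set by the pseudocount). Kank4os stands apart at the top with 6.02, and Smc2os, Lhx1os, Abhd11os and Hk1os at the foot have both cKO values on the dotted line.

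Kank4os (chr4:98793768-98798900, plus strand, GRCm38) is an RNA of up to 2251 bases that overlaps Kank4 without shared exon bases. Kank4 codes for an ankyrin repeat protein that regulates the actin cytoskeleton. Kank4os was at 0.0213, 0.228 and 0.0431 FPKM in the controls against 9.16 and 14.4 in the cKO. Both cKO libraries lie far above all controls, and the cKO mean was 121.2 times the control mean (log2 fold change 6.02, SE 0.47). In fragments this is about 2.0, 7.9 and 1.0 in the controls against 159 and 295 in the shallower cKO libraries. Kank4 was at 0.334, 0.269 and 0.207 FPKM in the controls against 0.174 and 0.243 in the cKO, with overlapping groups (log2 fold change -0.26, SE 0.43, adjusted p = 0.838). In the controls Kank4os was below Kank4 in each library, and in the cKO it was above it in each.

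Smc2os (chr4:52430285-52438965, minus strand, up to 626 bases) starts head to head with Smc2, 278 bases away. Smc2 codes for a core subunit of condensin, which compacts chromosomes in mitosis. Smc2os was at 0.885, 2.04 and 1.28 FPKM in the controls and was listed at 0 in both cKO libraries. Smc2 was at 19.4, 24.6 and 28.9 FPKM in the controls against 15.5 and 20.9 in the cKO, with overlapping groups (log2 fold change -0.41, SE 0.21, adjusted p = 0.496).

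Lhx1os (chr11:84525660-84535831, plus strand, up to 599 bases) starts 125 bases from Lhx1, a LIM homeobox gene of Cajal-Retzius and other neurons, in the opposite direction. It was at 0.711, 1.04 and 0.389 FPKM in the controls and was listed at 0 in both cKO libraries. Lhx1 was at 0.228, 0.445 and 0.297 FPKM against 0.513 and 0.247, and its groups overlap (log2 fold change 0.15, SE 0.45, adjusted p = 0.911). The 4 markers of Cajal-Retzius cells, led by Reln, summed to 83.7 to 114.6 FPKM in the controls against 80.7 and 73.9 in the cKO, none of them at 0 throughout and none past the thresholds. Their part in the difference of Lhx1os was not tested. In bulk RNA, fewer cells of a type and less RNA per cell cannot be told apart.

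Abhd11os (chr5:135012114-135013253, minus strand, up to 604 bases) shares 62 exon bases with Abhd11, which codes for a mitochondrial hydrolase. RefSeq lists it as a long noncoding RNA and GENCODE as a transcribed pseudogene. It was at 0.427, 0.575 and 0.544 FPKM in the controls, the narrowest spread of these members, and was listed at 0 in both cKO libraries. Abhd11 was at 29.7, 27.0 and 31.4 FPKM against 25.4 and 22.4, so that every cKO value was under every control (log2 fold change -0.30, SE 0.16, adjusted p = 0.499).

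Hk1os (chr10:62340256-62363367, plus strand) shares 157 exon bases with the hexokinase gene Hk1. Hk1os was at 0.0687, 0.601 and 0.235 FPKM in the controls and was listed at 0 in both cKO libraries. Hk1 was at 20.5 to 32.2 FPKM in the controls against 31.1 and 24.5 in the cKO (adjusted p = 0.970, log2 fold change 0.03, SE 0.22). Med9os (chr11:59946889-59948142, minus strand, up to 527 bases) starts 64 bases from Med9, a subunit gene of the Mediator complex. It was at 2.29, 1.54 and 2.68 FPKM in the controls against 0.307 and 1.56 in the cKO, where MG19 lies inside the control range and MG18 below it (log2 fold change -1.43, SE 0.53, and -0.41 without MG18). Med9 was at 7.58 to 8.64 FPKM against 7.25 and 7.17 (log2 fold change -0.18, SE 0.18, adjusted p = 0.709).

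The values of 0 rest on few fragments. Had the 2 cKO libraries held these RNAs at the control mean, about 6.7 and 8.0 fragments of Smc2os would have fallen to them, 3.3 and 3.9 of Lhx1os, 2.4 and 2.8 of Abhd11os, and 2.8 and 3.3 of Hk1os. The control MG17, close to the cKO libraries in depth, held about 8.0, 2.3, 3.3 and 2.9 fragments of the same RNAs. These figures are rough and too high for short transcripts, since they use the whole transcript length. A complete loss and a partial drop could not be distinguished at this depth, and no fold is given for RNAs at 0 throughout 1 group. Of the 6 changed members 4 have a longest transcript of at most 650 bases, whereas the median of the 33 unchanged ones was 1910 bases. Of the 5 unchanged members that are as short, Rab26os and Sp3os had values above 2 FPKM in every library, with log2 fold changes of -0.24 and 0.22. The other 3 had values of 0, Zfp652os and Tspan2os in 3 of the 5 libraries each and Asb17os in 4. The part of transcript length was not tested.

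**Figure D3:**
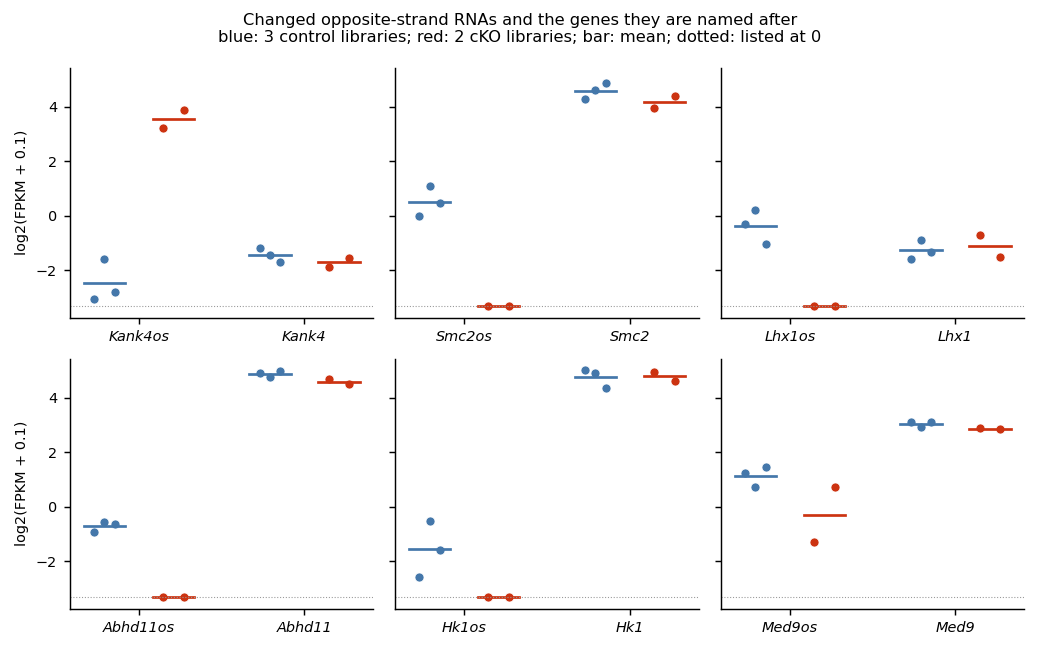
Level in every library (log2(FPKM + 0.1)) of the 6 changed opposite-strand RNAs and, beside each, the gene it is named after, with controls in blue, cKO in red, bars at the mean of the log values and the dotted line at a value of 0. The cKO points of Kank4os lie above its controls and those of Smc2os, Lhx1os, Abhd11os and Hk1os lie on the dotted line, while the namesakes shift by at most 0.41.

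The genes around these members were also read. Within 250 kb of the starts of the 6 members lay 45 other genes of the table, the namesakes among them, of which 33 were tested. None was past the thresholds, which 4.04% of all tested genes passed in either direction, and their log2 fold changes ran from -0.94 to 0.57. Near Kank4os, Usp1, which codes for a deubiquitinase of DNA repair, was at 15.2 to 21.0 FPKM in the controls against 17.8 and 15.7 in the cKO (log2 fold change -0.08, SE 0.18). L1td1, the nearest gene upstream on the same strand, was listed at 0 in every library.

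**Figure D4:**
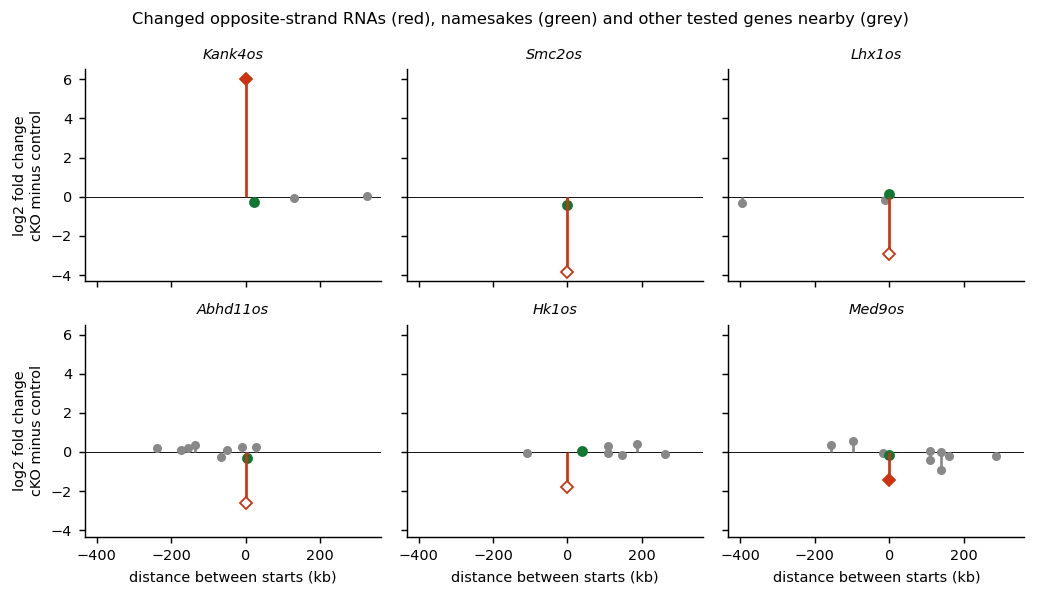
Log2 fold change (vertical axis) of each changed member (red diamond), its namesake (green) and the other tested genes within 250 kb (grey) against the distance between gene starts in kb, signed along the strand of the member. The 33 neighbours lie between -0.94 and 0.57 and Kank4os at 6.02, while the open diamonds mark the 4 members listed at 0 in both cKO libraries, whose height is set by the pseudocount.

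Of the other 33 members, the 31 that were not at 0 throughout a group had log2 fold changes from -1.53 to 0.94. Over all 39 the median was -0.22, with 28 negative, beside a median of -0.02 and 52.2% negative over all genes tested. Groups were fully apart in 13 of the 39, beside 30.8% of all genes. By arrangement, all 9 tested divergent members were on the negative side. Of these, 5 had an absolute log2 fold change under 0.5, and the values of Smc2os and Lhx1os are set by the pseudocount. Also negative were 16 of 24 that share exon bases with the namesake, 2 of 4 that overlap it without them and 1 of 2 convergent ones. Among the other long noncoding RNAs 327 of 570 tested were negative.

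Among the members of developmental genes, Dlx6os1 was the highest. It was at 21.2, 21.4 and 28.8 FPKM in the controls against 33.4 and 35.0 in the cKO, without overlap (log2 fold change 0.54, SE 0.18). Dlx6 was at 1.36, 0.842 and 1.60 FPKM against 2.56 and 1.26, with overlapping groups (log2 fold change 0.52, SE 0.38). The 10 markers of ventral telencephalon and interneurons all had positive log2 fold changes, with a median of 0.59, and summed to 87.5 to 89.6 FPKM in the controls against 139.5 and 104.4 in the cKO. One of them, Gsx2, was past the thresholds (log2 fold change 1.11, adjusted p = 0.390). None of these 10 was at 0 throughout, and their part in the difference of Dlx6os1 was not tested.

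Emx2os and Pax6os1 accompany homeobox genes of the dorsal cortex. Emx2os was at 0.840, 1.05 and 1.04 FPKM in the controls against 0.646 and 0.463 in the cKO, without overlap (log2 fold change -0.73, SE 0.33), and Emx2 was at 4.09 to 4.94 against 5.45 and 3.06. Pax6os1 was at 0.239, 0.511 and 0.608 FPKM against 0.406 and 0.180, with overlap (log2 fold change -0.49, SE 0.48). Pax6 was at 16.2, 20.5 and 22.4 against 10.7 and 13.9, without overlap (log2 fold change -0.68). Zeb2os differed little, at 5.84 to 7.78 FPKM in the controls against 6.41 and 5.55 in the cKO (log2 fold change -0.19, SE 0.21).

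Six3os1 was at 0.0171, 0.102 and 0.0641 FPKM in the controls against 0.121 and 0.279 in the cKO (log2 fold change 0.88, SE 0.53). Six3, a homeobox gene of the anterior forebrain, was under 0.1 FPKM in every library. Asb17os was listed at 0 in 4 libraries and was at 1.24 FPKM in MG19, and Asb17, known from the testis, was listed at 0 in all 5. Together with Kank4os, Dio3os, Foxl2os and Igf2os, these are the 6 members with a control mean under 0.1 FPKM and a cKO mean over it. The last 3, named here after their values were seen, reached at most 0.243 FPKM in any library. A control mean over 0.1 FPKM and a cKO mean under it held for Abhd11os, Hk1os, Lhx1os, Smc2os, Tspan2os, Uckl1os and Dgkeos. Dgkeos too was named after its values were seen. The share of all genes that crossed 0.1 FPKM in either direction was not counted. Tspan2os was at 0.114, 0.567 and 0 FPKM in the controls and was listed at 0 in both cKO libraries.

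Of the other members among the 12 highest in the controls, Man2c1os was at 3.08, 4.07 and 3.98 FPKM in the controls against 2.20 and 2.28 in the cKO, without overlap (log2 fold change -0.69, SE 0.24). Its namesake Man2c1, a mannosidase gene, was at 11.8 to 13.8 FPKM against 14.6 and 12.7 (log2 fold change 0.12, SE 0.17). Cep83os, Fbxl12os, Rab10os and Sp3os lay between 2.38 and 4.75 FPKM in every library, with overlapping groups and log2 fold changes of -0.21, -0.08, 0.06 and 0.22.

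Members and namesakes were then set side by side. In 37 pairs both were tested, with the same direction in 18 and opposite directions in 19. Both were lower in 13 pairs, both higher in 5, the member lower and the namesake higher in 15, and the reverse in 4. Across these pairs, which share their 5 libraries, Pearson's r between the log2 fold changes was 0.08 and Spearman's rho 0.22, and without the 6 changed members they were 0.15 and 0.15. The namesakes of tested members had log2 fold changes from -0.68 to 1.21, and the lowest adjusted p among them was 0.230, for Pax6. The namesakes as a whole, of which 91 were tested, had a median of 0.09. Of the 91, 3 were past the thresholds, all upwards, beside 2.88% of all genes. Besides Rab26 these were Arhgap15, which codes for a Rac GTPase-activating protein, and Has2, a hyaluronan synthase. Arhgap15 was at 0.752, 0.437 and 1.72 FPKM in the controls against 4.15 and 4.59 in the cKO (adjusted p = 0.0560, log2 fold change 2.25, SE 0.46), while Arhgap15os stayed under 0.1 FPKM in every library. Has2 was at 0.638 to 0.750 FPKM against 3.06 and 0.916 (log2 fold change 1.18, SE 0.46, adjusted p = 0.377).

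**Figure D5:**
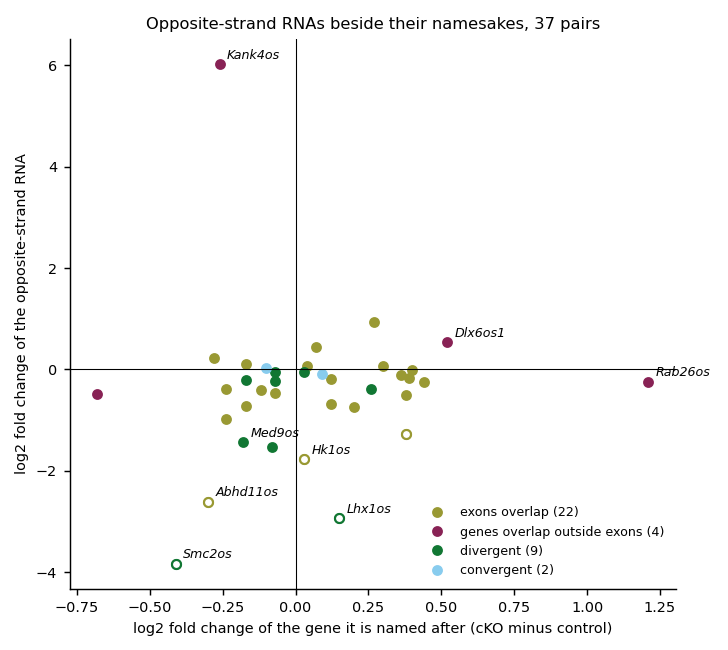
Log2 fold change of the opposite-strand RNA (vertical axis) against that of the gene it is named after (horizontal axis, a narrower scale) for the 37 pairs with both tested, coloured by arrangement, with open circles for members at 0 throughout 1 group, whose height is set by the pseudocount. The namesakes of the 6 changed members lie between -0.41 and 0.15.

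Other noncoding RNAs were counted in the same fit. Of 570 other long noncoding RNAs tested, 25 were past the thresholds upwards and 26 downwards, with a median of -0.07. Of all genes tested, 2.88% were past them upwards and 1.16% downwards. At an adjusted p under 0.05, 9 of the 570 were higher and none was lower, although 26 were lower at the unadjusted thresholds (limma). The shares of all genes at that adjusted p were 1.10% and 0.163%. Among the 16 host genes of small RNAs, 1 was past the thresholds, downwards, and among the 5 antisense and overlapping transcripts named so none was. Of the 9 protein-coding genes with an opposite-strand name 6 were tested and none was past the thresholds. Their log2 fold changes ran from -0.68 to 0.08.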

How the data were processed

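The authors depleted ribosomal RNA, built strand-specific paired libraries, mapped them to mm10 with TopHat2 and computed FPKM per gene with Cuffdiff. The deposited values are FPKM and hold no counts. From them log2(FPKM + 0.1) was fitted with limma 3.58.1 (R 4.3.3, trend on the mean), cKO against control without covariate, for genes whose mean reached 0.1 FPKM, leaving out small RNA names. Tested genes numbered 14702, and p was adjusted over them after Benjamini and Hochberg. Each p-value weighs a difference against the spread between these libraries, drawn towards the spread of other genes of similar level (prior of 6.23 degrees of freedom).

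The members and lists were chosen with earlier results of these data known. Members matched RefSeq by symbol (117) or synonym (3). Named are members past the thresholds, those listed at 0 in all libraries of 1 group, the 12 highest in controls, tested members of a list of developmental genes, and their namesakes. Neighbouring genes were chosen by distance. Fragments are FPKM times longest transcript length over the value of 1 fragment, taken from genes with a single transcript of at least 2000 bases. Alternatives are given in the closing section. Figures used matplotlib 3.10.9.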

Additional observations from a re-analysis of the deposited data

How the results depend on the processing

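The count of 1 higher member was 1 in every alternative except without MG18, where Asb17os and Six3os1 joined Kank4os (leaving out each library gave 1 to 3). The count of 5 lower members was 1 with a pseudocount of 1 (Smc2os), 1 with a mean of at least 1 FPKM (Med9os, since the others fall under that filter), 3 at an adjusted p under 0.05, and 3 without members that share exon bases with the other strand, which removes Abhd11os and Hk1os. Leaving out each control library gave 4 to 5 lower members, but without MG17 Mkln1os and Tspan2os stood in place of Hk1os and Med9os. The count was 6 with a pseudocount of 0.01 (Mkln1os joined) and 6 with no filter (Uckl1os joined). With quantile normalization it was 7 (Mkln1os and Stamos joined), and without the trend on the mean it was 4 (Med9os was lost). Hk1os was lost without MG17, MG18 or MG19 and was not tested without MG16, and Med9os was lost without MG17 or MG18. The count of 3 higher namesakes was 1 with a pseudocount of 1, 1 with quantile normalization, 0 at an adjusted p under 0.05 (3 at the unadjusted thresholds, limma) and 1 to 5 without single libraries, lowest without MG16 and highest without MG19. Over 12 settings Kank4os was past the thresholds in 12 and Smc2os in 11 of the 11 that tested it, Lhx1os and Abhd11os in 10 of 11, Med9os in 8 of 12 and Hk1os in 6 of 10. All settings reuse the 5 libraries whose contrast helped to choose the family, so this tally describes the processing only. Kank4os, Smc2os, Lhx1os, Abhd11os and Hk1os also passed the 0.1 FPKM filter only through the group where they were higher. Of 511 fold changes of named genes recomputed, 486 moved by less than the spread between libraries and 25 by more. Changing the filter, the small RNA names or the trend leaves the fold change of a gene as it was. Fold changes in these settings could not move and count among the 486 by construction, so that number overstates the stability. The log2 fold change of Kank4os was 3.52 with a pseudocount of 1 and 7.29 with 0.01. Without a cKO library the lone one is assumed to vary like the controls. No paired analysis was possible because the labels give no pairing between control and cKO libraries. Depth limits the RNAs listed at 0, which rest on a few fragments each.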
